A study of Mus musculus with 22 samples.

Results

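The genes described here are 10 markers and regulators of the epithelial-mesenchymal transition, chosen by name and read from 53342 genes counted in each library. They were followed in RNA from mouse pancreatic cancer, in cell lines grown from tumors and in whole tumors, with the microRNA miR-21 either knocked out (KO) or wild type (WT). The groups were 5 KO lines, 5 WT lines, 8 KO tumors and 4 WT tumors, 22 libraries in all. All mice were of a Bl6 line and carried K-Ras-driven pancreatic cancer, and neither animals nor lines were treated. The ages of the animals, the Cre driver and the form of the miR-21 deletion were not given in the labels. Lines came from dissociated tumor tissue, were passaged until fibroblasts were lost, and carried recombined K-Ras and p53 alleles per the labels. RNA was taken between passages 10 and 14, with 5% serum in the medium. Each line was titled with a different animal, as was each tumor, and the titles of 5 animals occur in both materials. Lines hold cancer cells alone, whereas tumors also hold stromal cells, and the RNA of the 2 was not separated.

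In the epithelial-mesenchymal transition, cells held in a sheet by junctions lose their contacts and gain a migratory, fibroblast-like form. Transcription factors of the SNAIL, ZEB and TWIST families drive it, in part by binding E-boxes in the promoters of junction genes and repressing them. In pancreatic cancer, tumors and the lines grown from them range from epithelial to mesenchymal states, and many lie between, with markers of both.

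Among KO lines the total count of a library lay between 24796473 and 31118113, and among WT lines between 25468350 and 28888902. Among tumors it lay between 24547650 and 30106745 (KO) and between 27332257 and 29987227 (WT). Levels are given as CPM, a gene's counts relative to the library total times a TMM scaling factor. For the labelled materials, the summed level of 10 fibroblast markers was 2.27 to 16.7 CPM over the lines and 1931 to 12635 CPM over the tumors. Of 8 immune markers, Adgre1, Lyz2, Itgam and Cd3e were at 0 counts in all lines, and the summed level was 2.86 to 6.67 CPM in lines and 491 to 2854 CPM in tumors. The 4 epithelial keratins Krt7, Krt8, Krt18 and Krt19 together stood at 6020 to 13249 CPM in lines and at 2794 to 12054 CPM in tumors.

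Sequences are shown first for miR-21 and the sites at which the members could meet it or the SNAIL and ZEB factors. Mature miR-21a-5p (RefSeq, GRCm38.p6, chr11:86584120-86584141, minus strand) is given with its seed, bases 2 to 8, in capitals, and the only matching site in the longest annotated 3′ UTR of the members, in Esrp1 (chr4:11358821-11358828, minus strand, mm10), with the 8 matching bases in capitals.
miR-21a-5p: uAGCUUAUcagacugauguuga
Esrp1 3′ UTR site: aatacttcttctgtATAAGCTAc
The search was for ATAAGCT, the complement of the seed, on the sense strand of each UTR. It was found in 1 of 10 members, and in 7.22% of 20937 genes with an annotated 3′ UTR. The site of Esrp1 is an 8mer, ATAAGCTA, which 2.11% of those genes hold. The other 9 members, from Vim with 342 bases to Zeb2 with 4941 bases of 3′ UTR, held no match to these letters.

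The E-box that SNAIL and ZEB proteins bind was searched as CACCTG or CAGGTG, each the reverse complement of the other, so that both strands were read. RefSeq promoters of GRCm38.p6, 250 bases before to 50 after a gene's start, were at hand for Epcam, Vim, Snai1, Zeb2 and Twist1, 5 of 10 members. The promoters of Epcam (chr17:87635729-87636028, plus strand) and Snai1 (chr2:167537945-167538244, plus strand) are printed because they alone among these 5 held the motif, which is in capitals.
Epcam promoter: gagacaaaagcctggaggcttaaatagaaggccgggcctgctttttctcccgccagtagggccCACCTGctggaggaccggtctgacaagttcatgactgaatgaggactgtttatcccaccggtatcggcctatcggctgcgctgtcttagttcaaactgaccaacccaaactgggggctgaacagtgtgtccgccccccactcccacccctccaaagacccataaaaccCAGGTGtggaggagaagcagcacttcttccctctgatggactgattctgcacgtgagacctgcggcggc
Snai1 promoter: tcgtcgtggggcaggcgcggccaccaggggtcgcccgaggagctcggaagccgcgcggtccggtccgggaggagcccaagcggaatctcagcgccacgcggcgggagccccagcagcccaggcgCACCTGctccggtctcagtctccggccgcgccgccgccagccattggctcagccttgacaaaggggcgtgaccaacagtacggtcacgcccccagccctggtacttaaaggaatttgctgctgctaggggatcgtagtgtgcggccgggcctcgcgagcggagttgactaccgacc
Epcam held it 2 times, at -187 and -19 bases from the start, and Snai1 1 time, at -126. Vim, Zeb2 at each of its 4 listed starts, and Twist1 held none. Among all 32851 promoters of this length, 20.2% held at least 1 such E-box and 2.88% held 2 or more. A match is a description of the letters and not a measured binding site.

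The members lie apart in the genome (mm10), all as protein-coding genes. Among epithelial genes, Cdh1 is at chr8:106603351-106670246, Epcam at chr17:87635979-87651129 and Esrp1 at chr4:11331933-11386783. The mesenchymal genes are Cdh2 at chr18:16588877-16809246 and Vim at chr2:13573927-13582826. The transcription factors are Snai1 at chr2:167538195-167542814, Snai2 at chr16:14705852-14709385, Zeb1 at chr18:5591860-5775467, Zeb2 at chr2:44983632-45117395 and Twist1 at chr12:33957671-33959829. Esrp1, Cdh2 and Zeb2 are on the minus strand and the other 7 on the plus strand. An antisense gene, Zeb2os, overlaps exons of Zeb2 and had 4.18% as many counts as Zeb2 over all libraries. Gm10125 overlaps Zeb1, with 0.991%, and Gm26663 overlaps Esrp1, with 0.0724%. Whether counting used the strand was not given, so reads of these pairs may not be told apart.

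The lines carried high levels of both an epithelial and a mesenchymal marker. Per kilobase of exon, over the 10 lines, Vim had 513 ± 70.6 CPM per kb (SD, n = 10) and Cdh1 261 ± 50.0. Epcam followed with 14.7 ± 14.6, then Twist1 with 11.3 ± 6.79, Cdh2 with 6.92 ± 3.08 and Zeb1 with 5.26 ± 1.27. Vim and Cdh1 stood apart from each other and from the rest beyond their SDs, whereas the SDs of Epcam and Twist1, of Twist1 and Cdh2, and of Cdh2 and Zeb1 overlapped. Zeb1 stood above Snai2, the next in order. Snai2 had 2.58 ± 1.06 CPM per kb, Esrp1 2.09 ± 2.66, Zeb2 0.440 ± 0.304 and Snai1 0.119 ± 0.0804. Snai2 and Esrp1 did not stand apart from each other, and Zeb2 and Snai1 were the lowest of the 10.

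In tumors Epcam joined the top of that order. Per kilobase of exon, Epcam had 281 ± 121 CPM per kb (SD, n = 12), Vim 214 ± 118 and Cdh1 199 ± 52.9, which overlapped within their SDs. The other members were far lower. Esrp1 had 14.0 ± 5.83 CPM per kb, Twist1 9.66 ± 8.29 and Snai1 7.73 ± 2.64, and their SDs overlapped. Zeb1 had 3.73 ± 1.03, Zeb2 3.63 ± 1.68, Cdh2 2.93 ± 2.56 and Snai2 1.44 ± 0.633, and no neighbours among these 4 stood apart.

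**Figure D1:**
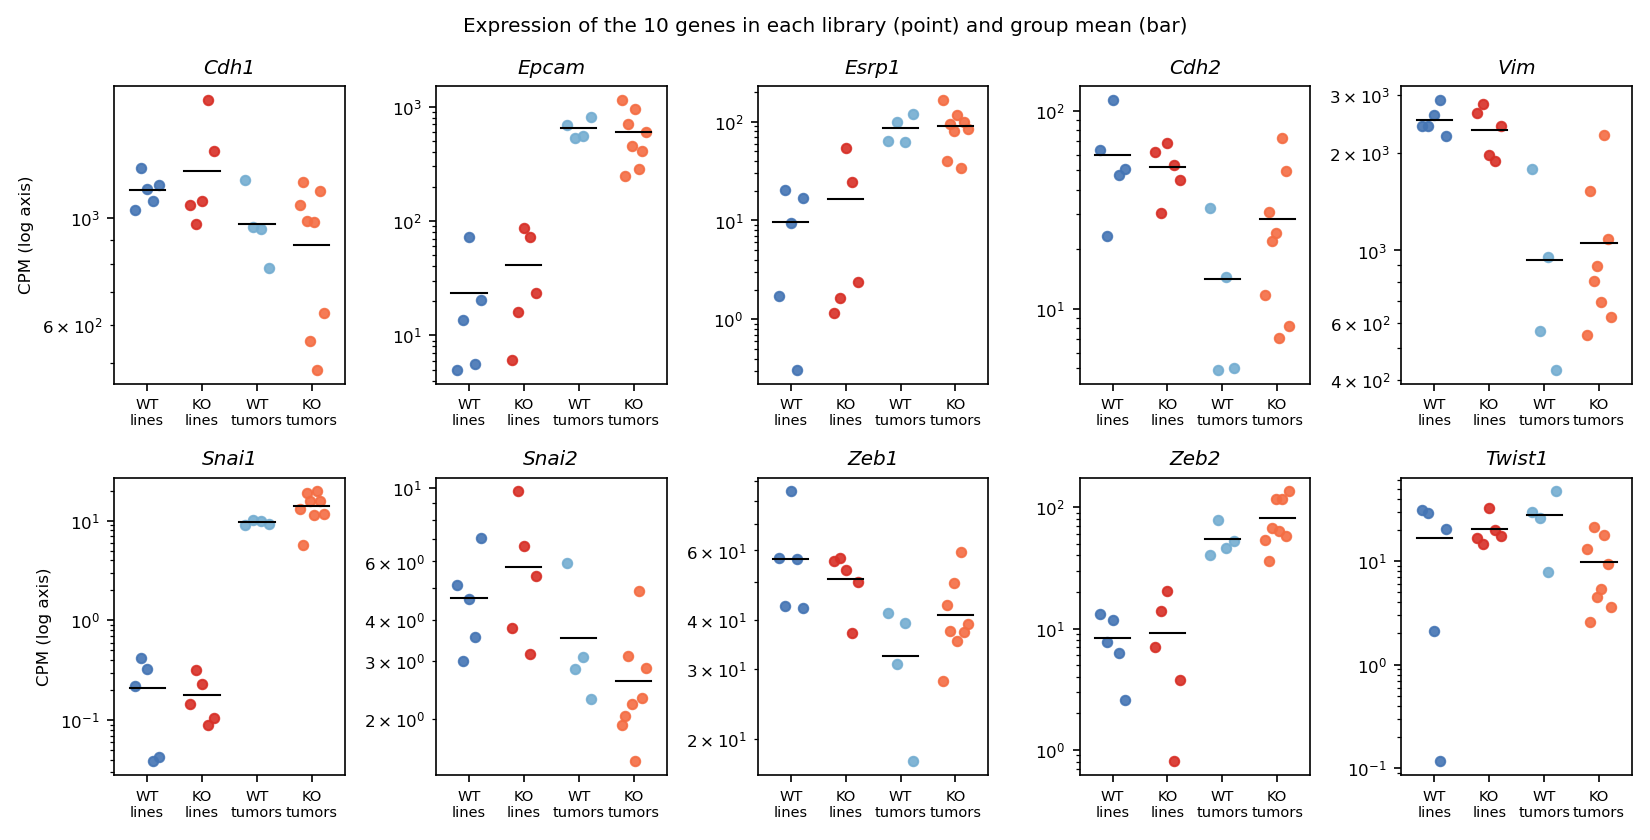
Level of each of the 10 genes in every library, in CPM on a log axis, by group (KO lines, WT lines, KO tumors, WT tumors), with each point 1 library and each bar the group mean. Epcam, Snai1 and Zeb2 lie higher in all tumors than in all lines, and no gene separates KO from WT in either material.

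The main question of the study was the difference between genotypes, and it was tested separately in lines and in tumors with edgeR's quasi-likelihood test over all genes, with Benjamini-Hochberg adjustment and a threshold of 0.05. In lines 0 members passed, where 0.0143% of 14020 genes tested passed (2 genes). No member passed at an unadjusted p of 0.05 either, against 6.99% of genes, and 0 members passed with DESeq2 or limma-voom. Of the 10 members 9 were tested, and Snai1 fell below the low-count filter. The KO and WT lines overlapped in all 10 members, whereas 1.23% of genes tested had groups that did not overlap. P-values here and below measure the spread between libraries, and within each material each library is 1 animal by title. The main fits over both materials treated the line and the tumor of the 5 animals with both as independent.

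Cdh1 encodes E-cadherin, which joins epithelial cells at adherens junctions. KO lines 1 to 5 had 1062, 971, 1083, 1754 and 1371 CPM of Cdh1, and WT lines 1 to 5 had 1036, 1268, 1145, 1082 and 1167 CPM. KO line 4 was the highest, and the groups overlapped. The log2 difference, KO minus WT, was 0.13 ± 0.16 (SE; adjusted p = 0.857, edgeR). Without KO line 4 it was -0.02.

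Epcam encodes an adhesion molecule of epithelial cells. It was at 6.06, 15.9, 86.4, 72.9 and 23.5 CPM in KO lines 1 to 5 and at 4.97, 13.7, 73.0, 5.63 and 20.3 CPM in WT lines 1 to 5. KO lines 3 and 4 and WT line 3 were high, and the same range was seen in both genotypes, 14.3 times from lowest to highest KO line and 14.7 times among WT lines. The log2 difference was 0.80 ± 0.86 (SE; adjusted p = 0.840, edgeR), and leaving out 1 line moved it between 0.35 (without KO line 3) and 1.89 (without WT line 3).

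Esrp1 encodes a splicing regulator that sets epithelial isoforms of many transcripts. KO lines 1 to 5 had 1.16, 1.65, 53.5, 24.4 and 2.38 CPM, and WT lines 1 to 5 had 1.74, 20.2, 9.50, 0.308 and 16.8 CPM. It varied more than Epcam, 46.1 times among KO lines and 65.6 times among WT lines, and 5 lines at 9.50 CPM or more lay above 5 lines at 2.38 CPM or less, across both genotypes. The log2 difference was 0.79 ± 1.20 (SE; adjusted p = 0.888, edgeR), and without KO line 3, the highest, it was -0.38. Esrp1 is the member with the miR-21 seed match printed above. Its paralog Esrp2 varied less, at 68.6 ± 14.4 CPM (SD, n = 5) in KO lines and 67.3 ± 8.90 CPM (n = 5) in WT lines.

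Vim, the intermediate filament of mesenchymal cells, was at 2642, 2822, 1969, 1880 and 2419 CPM in KO lines 1 to 5 and at 2414, 2420, 2603, 2912 and 2249 CPM in WT lines 1 to 5. Over the 10 lines Vim was the steadiest member, at 1.55 times from lowest to highest, followed by Cdh1 at 1.81 times. Vim lay within 1.50 times among KO lines and 1.30 times among WT lines, with a log2 difference of -0.10 ± 0.14 (SE; adjusted p = 0.872, edgeR). Cdh2 encodes N-cadherin, the cadherin of mesenchymal and neural cells. It was at 61.7, 30.6, 69.0, 53.5 and 44.8 CPM in KO lines and at 63.3, 23.3, 114, 47.6 and 50.6 CPM in WT lines, and the groups overlapped. WT line 3 was the highest. The log2 difference of Cdh2 was -0.20 ± 0.37 (SE; adjusted p = 0.906, edgeR), and without WT line 3 it was 0.17.

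Of the SNAIL repressors, Snai1 was at the edge of detection in lines, with 4, 9, 6, 2 and 3 counts in KO lines 1 to 5 and 6, 10, 8, 1 and 1 counts in WT lines 1 to 5. Snai2, which encodes Slug, was at 3.78, 9.80, 6.67, 3.16 and 5.43 CPM in KO lines and at 5.08, 2.99, 4.63, 3.55 and 7.08 CPM in WT lines. KO line 2 was the highest and WT line 2 the lowest, and the groups overlapped. The log2 difference of Snai2 was 0.31 ± 0.36 (SE; adjusted p = 0.850, edgeR).

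The ZEB factors repress epithelial genes through paired zinc-finger clusters. Zeb1 was at 56.3, 57.4, 53.6, 37.0 and 49.9 CPM in KO lines and at 57.5, 43.4, 84.9, 57.0 and 42.8 CPM in WT lines. Zeb2 was at 7.01, 14.0, 20.5, 0.801 and 3.76 CPM in KO lines and at 13.2, 7.67, 11.8, 6.28 and 2.59 CPM in WT lines. KO line 4, the line with the most Cdh1, had the least Zeb1 and the least Zeb2. The log2 differences were -0.17 ± 0.20 (SE) for Zeb1 (adjusted p = 0.855, edgeR) and 0.15 ± 0.71 for Zeb2 (adjusted p = 0.968). Without WT line 3 that of Zeb1 was 0.02, and that of Zeb2 was -0.05 without KO line 2, -0.37 without KO line 3 and -0.08 without WT line 5.

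Twist1, a basic helix-loop-helix factor that binds E-boxes, was at 16.6, 14.7, 32.7, 20.0 and 17.4 CPM in KO lines 1 to 5 and at 31.0, 28.9, 2.09, 0.116 and 20.5 CPM in WT lines 1 to 5. WT line 4 had 3 counts and WT line 3 had 52, whereas the other 8 lines had 420 or more. The WT lines thus spanned 268 times from lowest to highest. The log2 difference of Twist1 was 0.30 ± 0.91 (SE; adjusted p = 0.946, edgeR), and it was -0.02 without WT line 4.

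Over the 9 members tested, the median log2 difference in lines was 0.15, beside -0.03 for all genes tested, with 6 members above 0 and 3 below. Other genes of the program were read from lists of 30 epithelial junction and state genes, 20 mesenchymal state genes and 20 other transcription and splicing regulators. In lines, 0 of 27, 0 of 14 and 0 of 19 tested genes of these lists passed, with medians of 0.27, 0.09 and 0.03. At an unadjusted p of 0.05 there were 2 genes in each list, and DESeq2 and limma-voom called 0 of them. The smallest p-values belonged to Spint2, Spint1, Ctnnd1 and Crb3 in the first list, to Sparc, Itga5, Loxl2 and Acta2 in the second, and to Tgfbr2, Tgfb1, Foxc1 and Klf8 in the third. Spint1, a membrane protease inhibitor of epithelia, had a log2 difference of 1.48, with 26.9 ± 16.8 CPM (SD, n = 5) in KO and 9.69 ± 8.41 CPM (n = 5) in WT lines. Sparc, a matrix glycoprotein, had one of -2.71, with 15.1 to 29.9 CPM in KO lines and 14.8 to 481 CPM in WT lines.

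In tumors, 0 of 10 members passed between genotypes with edgeR, where 0.0110% of 18125 genes tested passed (2 genes). At an unadjusted p of 0.05 there was 1 member, Twist1, beside 16.7% of all genes. DESeq2 and limma-voom also called 0 members. KO and WT tumors overlapped in all 10, beside 2.06% of genes whose groups did not overlap. In bulk RNA, fewer cells of a type and less RNA per cell cannot be told apart. The keratin sum was 2794 to 6281 CPM in KO tumors and 4351 to 12054 CPM in WT tumors, and its part in the values that follow was not tested beyond a fit with the keratin mean as a covariate.

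Among the epithelial members, Cdh1 in KO tumors had a lowest level of 484, a median of 981 and a highest level of 1187 CPM, and WT tumors 1 to 4 had 1195, 954, 949 and 788 CPM. The groups overlapped, with a log2 difference of -0.17 ± 0.26 (SE; adjusted p = 0.776, edgeR). Epcam in KO tumors had a lowest level of 248, a median of 528 and a highest level of 1155 CPM, and WT tumors had 685, 537, 554 and 820 CPM. All WT values of Epcam lay inside the KO range, and the log2 difference was -0.15 ± 0.37 (SE; adjusted p = 0.875, edgeR). Esrp1 in KO tumors ran from 34.1 over a median of 89.1 to 167 CPM, and in WT tumors it was at 63.4, 98.6, 62.5 and 119 CPM. The WT values again lay inside the KO range, with a log2 difference of 0.03 ± 0.36 (SE; adjusted p = 0.975, edgeR).

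Of the mesenchymal members, Cdh2 varied more between tumors than the epithelial members did, and Vim about as much as Epcam and Esrp1. Over the 12 tumors Cdh2 spanned 14.9 times from lowest to highest and Vim 5.27 times. Esrp1 spanned 4.90 times, Epcam 4.66 and Cdh1 2.47. Cdh2 in KO tumors ran from 7.11 over a median of 23.1 to 73.0 CPM, and in WT tumors it was at 32.3, 4.91, 14.5 and 5.00 CPM. Vim in KO tumors ran from 551 over a median of 851 to 2260 CPM, and in WT tumors it was at 1779, 565, 953 and 429 CPM. KO tumor 6 was the highest in both genes and WT tumor 1 the highest of its group in both. The log2 differences were 0.97 ± 0.71 (SE) for Cdh2 (adjusted p = 0.519, edgeR) and 0.15 ± 0.45 for Vim (adjusted p = 0.900). That of Cdh2 was 0.59 without KO tumor 6, 1.78 without WT tumor 1 and 1.94 with the acinar mean as a covariate. That of Vim was -0.11 without KO tumor 6, -0.04 without WT tumor 2 and -0.09 without WT tumor 4.

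Snai1 in KO tumors had a lowest level of 5.64, a median of 14.4 and a highest level of 19.8 CPM, and WT tumors 1 to 4 had 9.03, 10.2, 10.0 and 9.22 CPM. KO tumor 2 was below all WT tumors and the other 7 KO tumors, at 11.3 CPM or more, were above them all. The log2 difference of Snai1 was 0.51 ± 0.27 (SE; adjusted p = 0.371, edgeR). Snai2 in KO tumors ran from 1.49 over a median of 2.27 to 4.89 CPM, and in WT tumors it was at 5.92, 2.83, 3.08 and 2.30 CPM. WT tumor 1 was the highest of all 12, and the log2 difference of Snai2 was -0.47 ± 0.36 (SE; adjusted p = 0.533, edgeR).

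Zeb1 in KO tumors ran from 28.0 over a median of 38.4 to 59.5 CPM, and in WT tumors it was at 41.6, 30.9, 39.4 and 17.5 CPM. Zeb2 in KO tumors ran from 36.0 over a median of 65.5 to 136 CPM, and in WT tumors it was at 40.7, 78.9, 45.9 and 52.4 CPM. WT tumor 4 had the least Zeb1, whereas KO tumors 4, 6 and 8 had the most Zeb2, at 118, 118 and 136 CPM. The log2 differences were 0.32 ± 0.25 (SE) for Zeb1 (adjusted p = 0.537, edgeR) and 0.55 ± 0.33 for Zeb2 (adjusted p = 0.425).

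Twist1 had the lowest p of the members between genotypes in tumors. KO tumors had a lowest level of 2.58, a median of 7.36 and a highest level of 21.4 CPM, and WT tumors 1 to 4 had 29.8, 25.9, 7.79 and 47.4 CPM. WT tumors 1, 2 and 4 were above all 8 KO tumors, and WT tumor 3 was within their range. The log2 difference of Twist1 was -1.53 ± 0.57 (SE; adjusted p = 0.221, edgeR), and it did not pass over all genes. Over 23 alternatives its log2 difference ran from -1.83 to -0.88 and its adjusted p from 0.0967 to 0.999.

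With the mean of the 4 keratins as a covariate, the KO minus WT difference in tumors changed sign for Cdh1 (0.06), Epcam (0.56), Vim (-0.41) and Zeb1 (-0.09), and 0 members had an unadjusted p under 0.05. All 4 keratins were themselves lower in KO tumors (log2 -1.27 to -0.62), with adjusted p of 0.136 to 0.264 (edgeR). This covariate thus overlaps with genotype, and the sign changes are hard to read. Over the 10 members the median log2 difference was 0.09, beside 0.01 for all genes. Of the program lists, 0 of 30 epithelial, 0 of 19 mesenchymal and 0 of 20 regulator genes tested passed, with medians of -0.23, 0.26 and -0.03 (edgeR). At an unadjusted p of 0.05 there were 3, 6 and 5, DESeq2 called 0, 1 and 1, and limma-voom called 0. The smallest p-values were those of Grhl2, Marveld3, Ctnnd1 and Esrp2, of Thy1, S100a4, Mmp2 and Itga5, and of Tgfb1, Foxc2, Prrx1 and Tgfbr2. Grhl2, a transcription factor that maintains epithelial junction genes, had 27.2 ± 12.5 CPM (SD, n = 8) in KO and 57.0 ± 38.6 CPM (n = 4) in WT tumors (log2 difference -1.10, adjusted p = 0.228, edgeR). Tgfb1, a ligand that induces the transition, had 99.0 ± 26.3 CPM (SD, n = 8) in KO and 170 ± 54.1 CPM (n = 4) in WT tumors (log2 difference -0.82, adjusted p = 0.147, edgeR).

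**Figure D2:**
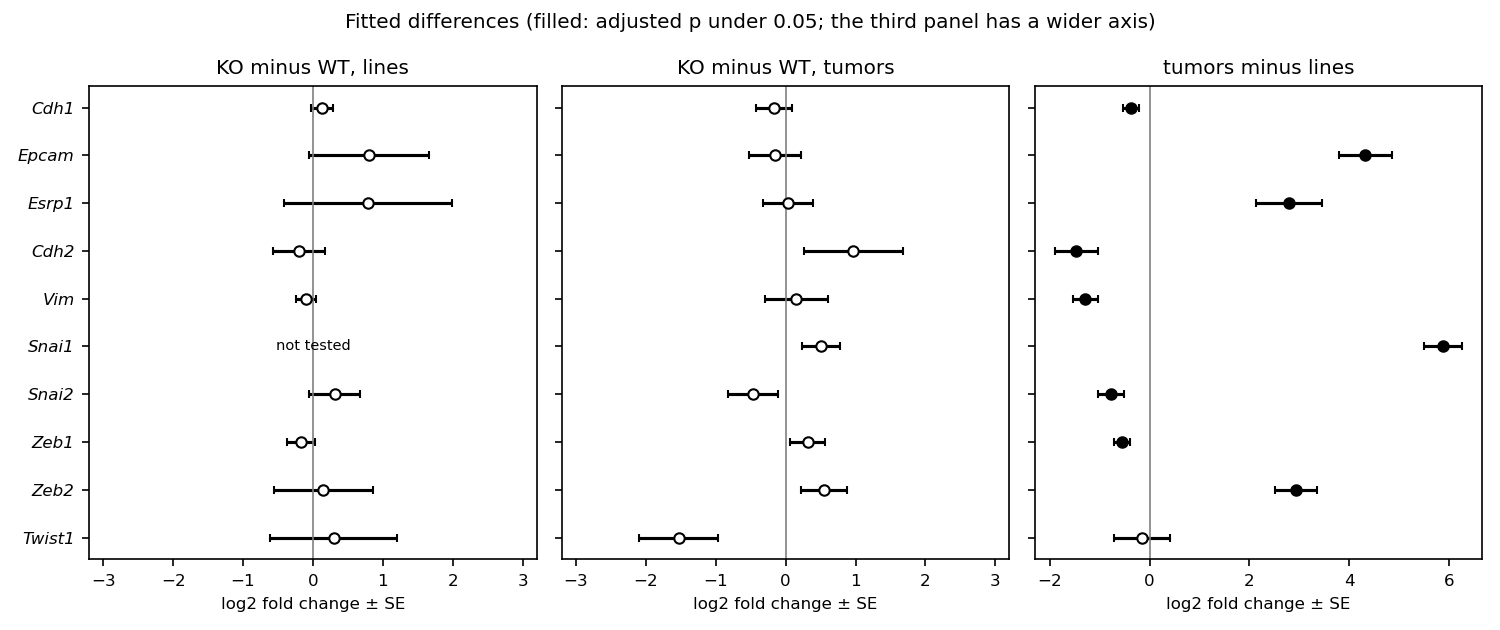
Log2 fold change of each member with its standard error, for KO minus WT in lines, KO minus WT in tumors, and tumors minus lines, with filled points where the adjusted p of edgeR is under 0.05. Filled points appear only for tumors minus lines, where Epcam, Esrp1, Snai1 and Zeb2 are above 0 and Cdh1, Cdh2, Vim, Snai2 and Zeb1 below.

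Most members differed between tumors and lines. Between tumors and lines, in 1 fit of all 22 libraries with the KO and WT differences averaged, 9 of 10 members passed, 4 higher and 5 lower in tumors, where 65.5% of 18662 genes passed (38.5% higher and 27.0% lower). The count alone therefore says little about the members. The 5 animals with both materials were not paired in this fit. Tumors lay above lines without overlap in Epcam, Snai1 and Zeb2, beside 12.2% of genes. Snai1, here and in the count above, passed the low-count filter through the tumors alone and so had to be higher there. The median log2 difference of the members was -0.26, and that of all genes 0.15.

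Epcam was at 4.97 to 86.4 CPM in lines and at 248 to 1155 CPM in tumors, 20.1-fold higher (log2 4.33 ± 0.54, SE; adjusted p = 9.7e-07, edgeR). Esrp1 was at 0.308 to 53.5 CPM in lines and at 34.1 to 167 CPM in tumors, 6.90-fold higher (log2 2.79 ± 0.66; adjusted p = 1.0e-03), with an overlap because KO line 3 was above the 2 lowest tumors. Cdh1 did not follow them. It was at 971 to 1754 CPM in lines and at 484 to 1195 CPM in tumors, 0.774 times the line level (log2 -0.37 ± 0.16; adjusted p = 0.0439). Of the keratins, Krt8 (log2 -0.73 ± 0.18) and Krt19 (-1.21 ± 0.24) were also lower in tumors, with adjusted p of 0.00124 and 1.8e-04, whereas Krt7 and Krt18 did not pass. Epcam and Esrp1 thus rose where Cdh1, Krt8 and Krt19 fell. With limma-voom the log2 differences were 4.93 for Epcam and 4.06 for Esrp1, and with the animal as a block they were 5.68 and 4.93.

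The call of Cdh1 was weak. Its adjusted p was 0.122 with RLE factors, 0.176 with upper quartile factors, 0.0813 over genes with a mean of at least 1 CPM, 0.123 with DESeq2, 0.126 without KO tumors 4 and 8 and WT tumor 4 (added after seeing the data), 0.344 within WT and 0.0775 within KO. KO tumors 4 and 8 had the highest acinar sums, 2230 and 1167 CPM, and WT tumor 4, at 452 CPM, the highest of the WT tumors, though KO tumor 5 had 471 CPM. The call also ended without KO line 4 or 5, WT line 2, 3, 4 or 5, or WT tumor 2, 3 or 4, with adjusted p between 0.0514 and 0.105. With the animal as a block, over the 5 animals with both materials, the log2 difference of Cdh1 was -0.19 (adjusted p = 0.387). Over all 32 alternatives its adjusted p ran from 0.0235 to 0.387.

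Vim was at 1880 to 2912 CPM in lines and at 429 to 2260 CPM in tumors, 0.408 times the line level (log2 -1.29 ± 0.25, SE; adjusted p = 1.7e-04, edgeR). Cdh2 was at 23.3 to 114 CPM in lines and at 4.91 to 73.0 CPM in tumors, 0.360 times (log2 -1.47 ± 0.43; adjusted p = 0.00476). Both mesenchymal markers were lower in tumors although the fibroblast markers, which sum to at most 16.7 CPM in lines, were higher there. Within KO libraries alone Cdh2 did not pass (log2 -0.87, adjusted p = 0.144), in a range of 9.4e-04 to 0.144 over its 32 alternatives.

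The repressors moved in different directions. Snai1 was at 0.0385 to 0.421 CPM in lines and at 5.64 to 19.8 CPM in tumors, a fitted 58.7-fold (log2 5.88 ± 0.38, SE; adjusted p = 1.3e-10, edgeR). It passed the low-count filter through the tumors alone, so it had to be higher there and its p-value adds no support. Zeb2 was at 0.801 to 20.5 CPM in lines and at 36.0 to 136 CPM in tumors, 7.60-fold higher (log2 2.93 ± 0.42; adjusted p = 4.8e-06). Their paralogs were lower in tumors. Snai2 was 0.586 times the line level (log2 -0.77 ± 0.26; adjusted p = 0.0130) and Zeb1 0.678 times (log2 -0.56 ± 0.16; adjusted p = 0.00467). Twist1, at 0.116 to 32.7 CPM in lines and 2.58 to 47.4 CPM in tumors, did not pass (log2 -0.16 ± 0.56; adjusted p = 0.820). Snai1 and Zeb2 are known to be expressed in fibroblasts, and Zeb2 also in macrophages. The fibroblast and immune sums given above rose with both genes in tumors, and their part in the result was not tested.

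Snai2 and Zeb1 did not keep their calls in every split of the libraries. Snai2 had a log2 difference of -0.37 (adjusted p = 0.525) within WT and -0.48 (adjusted p = 0.205) with the animal as a block, in a range of 0.00390 to 0.525 over 32 alternatives. Zeb1 had -0.78 (adjusted p = 0.0623) within WT and -0.30 (adjusted p = 0.139) within KO, in a range of 0.00200 to 0.139.

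The 5 animals with both materials were also compared within each animal. The log2 difference of tumor minus line was positive in 5 of 5 for Epcam (4.90 to 7.09), Esrp1 (2.28 to 7.36), Snai1 (4.38 to 6.74) and Zeb2 (1.61 to 4.12). It was negative in 5 of 5 for Cdh2 (-2.23 to -0.97), Vim (-2.10 to -0.44) and Zeb1 (-0.53 to -0.37). Cdh1 was lower in 3 of 5 tumors and higher in 2 (-0.48 to 0.21), and Snai2 was lower in 4 and higher in 1 (-0.86 to 0.22). For Snai1, which passed the low-count filter through the tumors alone, the direction was fixed in advance. These animals are part of the 22 libraries and are not a separate sample. The share of all genes with the same direction in 5 of 5 animals was not counted, so these counts alone say little about the members. Twist1 went both ways, with 5.39 in WT line 4 and its tumor, the line with 3 counts, and -2.65 in KO line 1 and KO tumor 2.

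**Figure D3:**
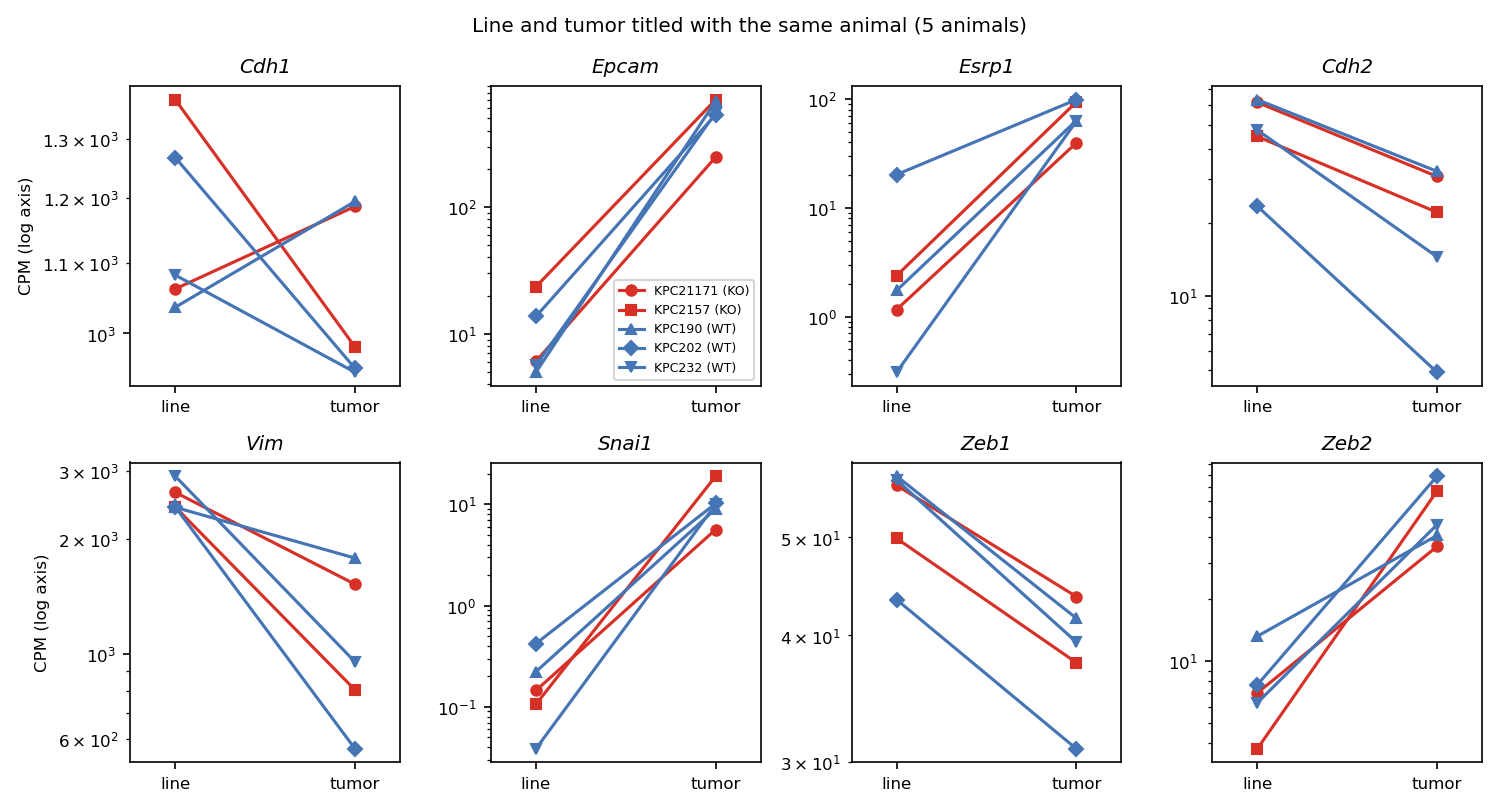
Level in the line and in the tumor titled with the same animal, in CPM on a log axis, with 1 line for each of 5 animals (2 KO, red, and 3 WT, blue). Epcam, Esrp1, Snai1 and Zeb2 rise from line to tumor in 5 of 5 animals, Cdh2, Vim and Zeb1 fall in 5 of 5, and Cdh1 falls in 3 and rises in 2.

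The wider lists gave more detail on this difference. Of 30 epithelial junction and state genes, 20 were higher in tumors and 1 lower, beside 38.5% and 27.0% of all genes, with a median log2 difference of 1.26, beside 0.15 for all genes. Of these 30, 3 passed the low-count filter in tumors but not in lines, and over the other 27 the counts were 17 and 1 and the median 1.22. Grhl2 was 24.9-fold higher (adjusted p = 3.5e-08, edgeR), at 1.37 ± 0.991 CPM (SD, n = 5) in KO lines, 1.83 ± 1.35 CPM (n = 5) in WT lines, 27.2 ± 12.5 CPM (n = 8) in KO tumors and 57.0 ± 38.6 CPM (n = 4) in WT tumors. Ovol1, a repressor of mesenchymal factors, Rab25, a small GTPase of epithelial recycling, and Ap1m2, an epithelial sorting adaptor, had fitted log2 differences of 5.30, 5.15 and 5.28, the first and the last from lines at or near 0 counts. The 1 gene lower was Pkp2, a desmosome plaque protein (log2 -0.38).

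The E-box was also counted in promoters of these lists. At the first listed start, 14 of 20 epithelial genes with a RefSeq promoter held CACCTG or CAGGTG (70%), and 8 of 20 held it 2 or more times. Among all promoters, with every listed start of a gene counted, 20.2% held this E-box. Of mesenchymal genes 2 of 10 held it (20%), and of the regulators 0 of 14. For Rab25 (chr3:88548326-88548355, minus strand) and Ap1m2 (chr9:21312337-21312366, minus strand), both among the 4 epithelial genes with the smallest p between materials, 30 bases with neighbouring E-boxes in capitals are shown.
Rab25 promoter window: catcgctccaccCACCTGtgcccCAGGTGc
Ap1m2 promoter window: ttaagacgcgctCACCTGgcggctCACCTG
No binding was measured here, and the shares are descriptions of the letters.

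Of 20 mesenchymal state genes 19 were tested, 17 were higher in tumors and 1 was lower, with a median log2 difference of 4.45. Tagln, Mmp2, Lox, Cnn1 and Thy1 passed the low-count filter through the tumors alone, so they had to be higher there. Over the other 14 genes 12 were higher and 1 lower, with a median of 1.60, beside 38.5% and 27.0% of all genes and a median of 0.15. These values of all genes still include genes that passed the filter through the tumors alone, so the 2 sets are not alike. Mmp2, a secreted protease, was at 0 to 0.145 CPM in KO lines and at 31.8 to 377 CPM in KO tumors. Lox, which cross-links collagen, was at 0 to 0.105 CPM in KO lines and at 88.3 to 375 CPM in KO tumors. Thy1, a surface marker of fibroblasts, was at 0 counts in all 5 KO lines and at 51.7 to 214 CPM in KO tumors, and Cdh11, a mesenchymal cadherin, was at 0.115 to 0.668 and at 30.9 to 119 CPM. In WT lines Thy1 was not at 0 counts throughout. The 1 gene lower was Axl, a receptor tyrosine kinase (log2 -1.16), the same direction as Vim and Cdh2. These genes rose beside the fibroblast markers given above, and the part of fibroblasts was not tested. Among the regulators, 8 of 20 were higher and 5 lower (median 0.46), near the 38.5% and 27.0% of all genes, so the counts set this list apart in neither direction. Tcf4, Tgfbr1, Prrx1 and Foxc2 were higher by fitted log2 differences of 1.68, 1.08, 3.19 and 5.07, and Foxc2 passed the low-count filter through the tumors alone. The 5 lower were Twist2 (log2 -2.65), Tcf3, Rbfox2, Tgfbr2 and Kdm1a, of which the last 4 had log2 differences between -0.44 and -0.26.

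Whether the KO difference itself differed between tumors and lines was tested as an interaction. With edgeR 0 members passed, as did 0% of 18662 genes, and 0 members had an unadjusted p under 0.05, beside 8.25% of all genes. DESeq2 and limma-voom called 0 members. The values ranged from -1.81 ± 1.12 (SE) for Twist1 to 1.20 ± 0.84 for Cdh2, with adjusted p between 0.702 and 0.951. No list gene passed with edgeR, with medians of -0.60 for the epithelial, 0.27 for the mesenchymal and 0.07 for the regulator list, beside 0.04 for all genes. At an unadjusted p of 0.05 there were 2, 2 and 1 of these genes, DESeq2 called 0, 0 and 1, and limma-voom 0. The smallest p-values were those of Ctnnd1, Marveld3, Spint1 and Ovol2, of Sparc, Thy1, Acta2 and Cdh11, and of Tgfb1, Prrx1, Snai3 and Sox4. Tgfb1 was at 87.9 ± 14.8 CPM (SD, n = 5) in KO and 68.6 ± 4.25 CPM (n = 5) in WT lines, the reverse of the order in tumors, with an interaction of -1.14 (adjusted p = 0.425, edgeR).

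How the members varied together was tested over all 45 pairs in each material, 90 pairs in all, on log2 CPM with a two-sided permutation test and Benjamini-Hochberg adjustment over the 90. In lines 1 pair passed. Esrp1 and Vim were opposed, with r = -0.82 (permutation p = 0.00329, adjusted p = 0.0423, n = 10), rho = -0.83 (permutation p = 0.00476, adjusted p = 0.0857) and r = -0.67 without the 2 lines farthest from the median of Esrp1. The number of pairs that passed was 0 when any of KO lines 1 to 5 or WT lines 1, 4 and 5 was left out, 1 without WT line 2 and 2 without WT line 3. Epcam and Esrp1 had r = 0.78 (permutation adjusted p = 0.100). Cdh1 and Zeb2 had r = -0.84 (permutation adjusted p = 0.0613), which was -0.45 without the 2 lines farthest from the median of Cdh1 and so rests on those lines.

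In tumors 6 pairs passed, 4 positive and 2 negative, most of them among Vim, Cdh2 and Zeb1 or of Esrp1 with Epcam or with Vim. Cdh2 and Vim had r = 0.89 (permutation p = 1.7e-04, adjusted p = 0.0148, n = 12), rho = 0.90 (permutation p = 2.8e-04, adjusted p = 0.0126) and r = 0.83 without the 2 farthest tumors. Vim and Zeb1 had r = 0.80 (permutation p = 8.2e-04, adjusted p = 0.0148), rho = 0.84 (permutation p = 0.00115, adjusted p = 0.0345) and r = 0.77 without 2. Cdh2 and Zeb1 had r = 0.74 (permutation p = 0.00322, adjusted p = 0.0423), rho = 0.73 (permutation p = 0.00846, adjusted p = 0.109) and r = 0.65 without 2. These 3 mesenchymal genes formed 3 of the 4 positive pairs.

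Epcam and Esrp1 were the other positive pair, with r = 0.85 (permutation p = 6.3e-04, adjusted p = 0.0148), rho = 0.72 (permutation p = 0.0107, adjusted p = 0.117) and r = 0.62 without 2. Esrp1 and Vim were opposed in tumors as in lines, with r = -0.85 (permutation p = 5.2e-04, adjusted p = 0.0148), rho = -0.81 (permutation p = 0.00240, adjusted p = 0.0540) and r = -0.70 without 2. The remaining pair was Cdh1 and Zeb2, with r = -0.86 (permutation p = 7.4e-04, adjusted p = 0.0148), rho = -0.71 (permutation p = 0.0122, adjusted p = 0.117) and r = -0.78 without 2. In this pair KO tumors 4, 6 and 8 lay apart, with the least Cdh1, at 555, 484 and 634 CPM, and the most Zeb2. Over the other 9 tumors, a split chosen after seeing the data, r was -0.45 (exact permutation p = 0.231) and rho -0.38 (exact permutation p = 0.318). The tumors left out were picked by their levels of these same genes. That alone can weaken r, so these p-values do not test the pair. KO tumors 4 and 8 also had the highest fibroblast sums, 9486 and 12635 CPM, and the highest immune sums, 2125 and 2854 CPM, whereas KO tumor 6 had a fibroblast sum of 5301 CPM and an immune sum of 660 CPM. The part of those cells was not tested. By Spearman's rho 3 pairs passed in tumors, of which 2, Cdh2 with Vim and Vim with Zeb1, are named above. The third was Esrp1 and Zeb1, with rho = -0.92 (permutation p = 4.0e-05, adjusted p = 0.00360), r = -0.72 (permutation p = 0.00802, adjusted p = 0.0802) and r = -0.62 without 2.

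The number of tumor pairs that passed depended on few tumors. Without KO tumor 6, 0 pairs passed, and without KO tumor 2, 2 pairs passed. KO tumor 6 was among the 2 farthest tumors left out in each of the 6 pairs above. There r kept its sign, between 0.62 and 0.83 for the positive pairs and at -0.70 and -0.78 for the others. KO tumor 6 had the highest Vim, Cdh2, Snai1 and Zeb1 and the lowest Cdh1 and Esrp1 of the 12 tumors. Its summed level of the epithelial list was 1607 CPM and of the mesenchymal list 10542 CPM. KO tumor 2 had the lowest Epcam, Twist1, Snai1 and Zeb2 and the lowest fibroblast sum, 1931 CPM, and keratin sum, 2794 CPM. Centred within genotype, 6 pairs passed in tumors and 2 in lines.

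**Figure D4:**
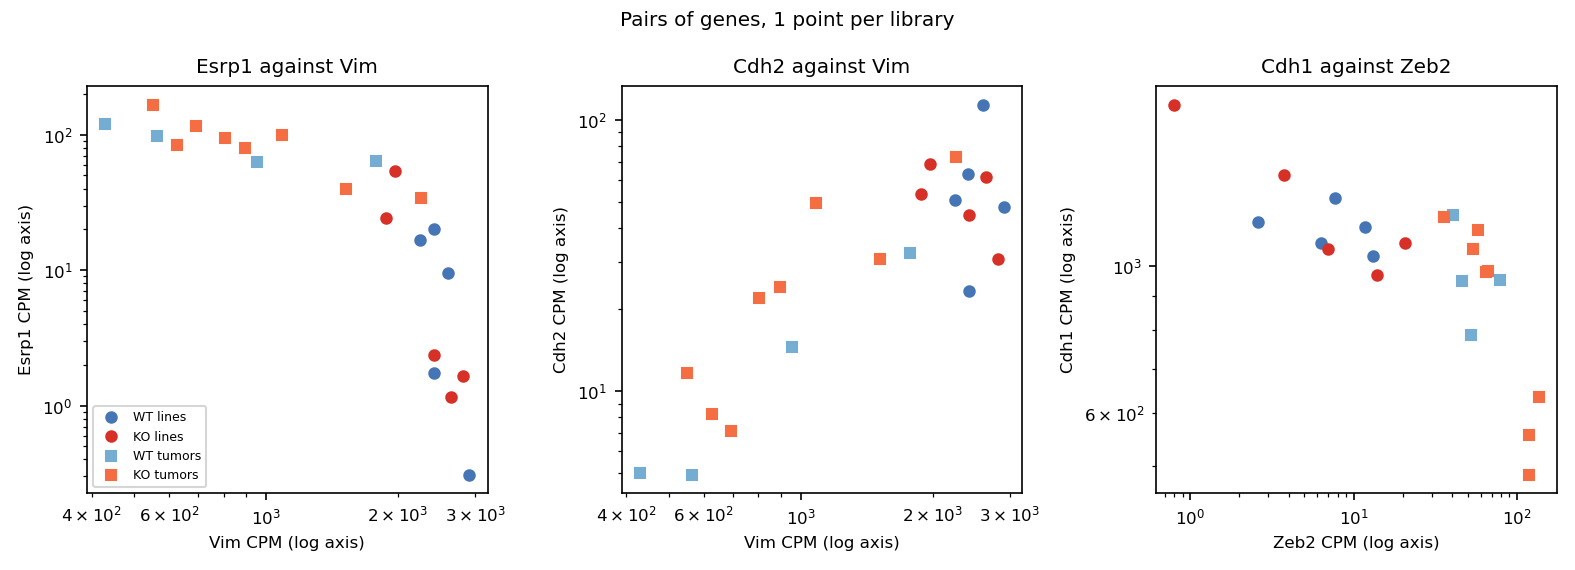
Esrp1 against Vim, Cdh2 against Vim and Cdh1 against Zeb2, in CPM on log axes, with each point 1 of 22 libraries (circles, lines; squares, tumors; blue, WT; red and orange, KO). Esrp1 falls as Vim rises within lines and within tumors, Cdh2 rises with Vim in tumors (r = 0.89), and KO tumors 4, 6 and 8 lie apart at the low end of Cdh1 with the most Zeb2.

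The genes whose levels ran closest to 3 of the members over the 10 lines are given as a description, among 12619 genes with a mean of at least 1 CPM. Closest to Cdh1 were Fer1l4 (r = 0.97), Tmem8 (0.92), Snord104, Trp53rka and Tmem189 (0.91 each). Closest to Vim were Coq4 (0.97), Gm10167 (0.93), Kifc1 (0.92), Sapcd2 and Pspc1 (0.89 each). Closest to Zeb1 were Hhex, Ccdc148, Nrep and Ppp3cc (0.90 each) and Gm42892 (0.89). No member was among the 5 closest to another. Epcam was at rank 1312 from Cdh1 (r = 0.48), Zeb2 at rank 332 from Zeb1 (r = 0.70) and Esrp1 at rank 12602 from Vim. All points share libraries and scaling, and Cdh1 and Vim varied little, so these orders rest on small differences between lines.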

How the data were processed

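The authors deposited raw counts of reads for each gene. RNA was sequenced single-end after a stranded mRNA kit, per the labels' protocols. bcl2fastq 1.9.0, Trim Galore, STAR and mm10 are named per the submitters' processing notes. The counter, its annotation and its strand setting are not given in the sources used here. Library totals, as stated above, limit precision through counting error, on top of the variation between animals.

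Gene IDs were matched without version to GENCODE vM21 on mm10 (53237 of 53342, the other 105 with 0.00944% of counts). CPM used TMM factors over 22 libraries, and log2 CPM a prior count of 2. edgeR 4.0.16 (R 4.3.3) ran quasi-likelihood tests (robust) after its default low-count filter, with Benjamini-Hochberg adjusted p-values, in lines, in tumors, and over all libraries for material and interaction. DESeq2 1.42.0 and limma 3.58.1 were alternatives, beside other scalings and filters, covariates from marker lists, single genotypes and leaving out libraries. Tested on simulated data, genes changed by 0.5, 1 and 2 (log2) were recovered at 1.54%, 23.1% and 69.1% in lines (13775 genes), 0%, 11.6% and 52.2% in tumors (17800 genes), 17.4%, 65.6% and 89.6% between materials (18188 genes) and 0%, 21.3% and 61.8% for the interaction (18179 genes).

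Lines and tumors of 5 animals were paired by title. Deviations of the line and the tumor of an animal from their group means correlated at 0.297, 0.137 and 0.314 in the WT animals and at 0.0758 and -0.00741 in the KO animals. The members and lists were chosen with earlier results of these data known. Named genes are all members, up to 4 genes of each program list with the smallest p in each comparison, those called lower in tumors, and the 5 genes closest to Cdh1, Zeb1 and Vim over lines. The lower genes, Krt7 to Krt19, Esrp2 and further values of list genes were added after their values were seen. Member pairs used 100000 resamples. Other marker lists had these summed ranges in lines and tumors: endothelial 0.363 to 4.32 and 130 to 495 CPM, and mesothelial 343 to 1567 and 279 to 2135 CPM. In tumors the acinar sum was 3.14 to 2230 CPM and the islet sum 0.105 to 333 CPM.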

Additional observations from a re-analysis of the deposited data

Results flagged for a closer look

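Snai1 in KO tumor 2 stood apart from its group, at 5.64 CPM beside 11.3 to 19.8 CPM in the other 7 KO tumors. On the log2 CPM scale, the gap to the nearest tumor was 0.549 of the range of the group. This was beyond Dixon's critical value of 0.526 for 8 samples, and the rule was applied on that scale only. It was the 1 such case among 40 groups of member values, and chance flags about 1 in 20 groups. KO tumor 2 also had the lowest fibroblast sum, 1931 CPM, and the lowest immune sum, 491 CPM, of the 12 tumors, and their part in this value was not tested.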

How the results depend on the processing

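The counts of members called between genotypes and for the interaction stayed at 0 under the alternatives run, and the count between materials, 9, ran from 6 to 9, with 7 under the replicate block. Pairs that passed were 0 (Spearman), 2 (centred) and 0 to 2 (1 line left out) in lines, and 3 (Spearman) and 0 to 6 (1 tumor left out) in tumors. List counts, added after seeing the data, moved as follows. Between genotypes in tumors, DESeq2 called 1 mesenchymal and 1 regulator gene, and leaving out 1 tumor 0 to 1 mesenchymal. For the interaction, DESeq2 called 1 regulator. The 1 epithelial gene lower in tumors became 0 with RLE or upper quartile factors, DESeq2, WT only, KO only and the replicate block. The 5 regulators lower became 3 (RLE), 2 (upper quartile), 3 (DESeq2), 1 (WT only), 3 (KO only), 2 (replicate block) and 3 to 5 (1 library left out, 3 without WT line 3). The median log2 difference of all genes between materials was 0.15 with TMM, 0.24 with RLE and 0.27 with upper quartile factors.

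Signs turned, in differences that did not pass, as follows. With limma-voom, Zeb2 in lines was -0.29, Esrp1 in tumors -0.07 and Twist1 between materials 0.37 (0.77 within WT). In tumors, Esrp1 was -0.11 with the fibroblast and -0.29 with the acinar covariate, Cdh1 0.06 with the keratin or acinar covariate, Epcam 0.56 (keratin) and 0.04 (without KO tumors 4 and 8 and WT tumor 4), Vim -0.41 and Zeb1 -0.09 (keratin). In the interaction with the replicate block, Cdh1 was 0.01 and Esrp1 0.47. Leaving out 1 library gave, in lines, Cdh1 -0.02 to 0.22, Esrp1 -0.38 to 1.24, Cdh2 -0.41 to 0.17, Zeb1 -0.26 to 0.02, Zeb2 -0.37 to 0.44 and Twist1 -0.02 to 0.66. In tumors it gave Esrp1 -0.16 to 0.24 and Vim -0.11 to 0.69, between materials Twist1 -0.35 to 0.02, and in the interaction Esrp1 -1.17 to 0.46. The cause was not tested. The replicate block ended the calls of Cdh1 and Snai2 between materials and no other of a member. Precision for Snai1 in lines is limited by 1 to 10 counts.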
